A study of Mus musculus with 12 samples.

Results

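Hoxa9 knockout was compared with wild type in satellite cells of old mice, 3 knockout libraries against 3 wild-type libraries, which are 6 of the 12 RNA-seq libraries in the series. The 6 were taken by their titles, which give genotype, age class and a replicate number from 1 to 3. All animals were C57BL/6 mice aged 22 to 28 months whose hindlimb muscle had been damaged by barium chloride, 50 µl of a 1.2% solution in all, shared among some 20 injection sites, and the cells were collected 3 days later. Both genotypes carried the same injury, so the comparison is between injured muscles throughout. The other 6 libraries come from young mice of 3 to 4 months, again 3 wild type and 3 Hoxa9 knockout, and served for the estimate of the spread and for 1 question, whether the knockout effect differed with age. The labels give neither the deleted part of Hoxa9, nor the tissues that lack it, nor the number of animals behind a library. The p-values below therefore describe variation among libraries, which may be technical in part. Of 22310 gene symbols in the files, 13540 had enough reads to be tested.

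Satellite cells are the stem cells of skeletal muscle, lying between the muscle fibre and its basement membrane. They are quiescent in resting muscle, and injury makes them divide, commit to the myogenic lineage and fuse. Hoxa9 is a homeobox transcription factor of the HoxA cluster that patterns the body axis in embryos and acts in blood stem cells. Proteins of this family bind short AT-rich motifs, often together with other homeodomain proteins.

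The base composition of transcripts is shown first, because the genotypes differed in how levels varied with it. The first 120 coding bases of 3 genes are given 5′ to 3′ with G and C in capitals, from GENCODE M21 transcripts of build GRCm38, which is not the build of the counts. Xiap, an inhibitor of caspases on chromosome X, is the rise with the lowest GC content among the named autosomal and X-linked genes, Numbl, a Notch antagonist on chromosome 7, is the fall with the highest, and Cilp2, a cartilage matrix protein on chromosome 8, is the rise with the highest.
Xiap: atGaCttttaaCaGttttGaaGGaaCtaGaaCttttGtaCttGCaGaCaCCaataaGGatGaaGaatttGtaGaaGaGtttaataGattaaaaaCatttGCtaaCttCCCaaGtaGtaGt
Numbl: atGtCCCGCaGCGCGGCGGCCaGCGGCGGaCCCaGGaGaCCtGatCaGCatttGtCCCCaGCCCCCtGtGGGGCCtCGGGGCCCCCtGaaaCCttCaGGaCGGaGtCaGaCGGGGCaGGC
Cilp2: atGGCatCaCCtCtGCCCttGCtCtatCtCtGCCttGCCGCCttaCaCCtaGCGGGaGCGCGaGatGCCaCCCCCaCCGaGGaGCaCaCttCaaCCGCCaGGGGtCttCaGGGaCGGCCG
In these stretches G and C made up 30.8% of the bases in Xiap, 70.8% in Numbl and 64.2% in Cilp2. The whole transcripts held 36.8%, 63.2% and 65.5%.

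Reads counted in genes numbered 14938635, 9039861 and 13601348 in the wild-type libraries and 6923987, 14713194 and 4453886 in the knockout libraries. Levels are CPM, a gene's read count normalised to the library's total after scaling with trimmed-mean factors, and values of 3 libraries are always given in the order of replicates 1, 2 and 3. Reads outside genes made up 39.2%, 57.1% and 40.8% of uniquely aligned reads in wild type and 48.6%, 32.7% and 70.8% in knockout. Y-linked transcripts were high in knockout replicates 2 and 3, where Ddx3y stood at 125 and 151 CPM and Xist at 17.1 and 34.9 CPM, as in males. In the other 4 libraries Ddx3y was at 5.11 CPM or less and Xist at 729 CPM or more, as in females. Sex is thus partly confounded with genotype, and the main counts are also given without those 2 libraries, which leaves 1 knockout library. The markers of the labelled cell type were present in all 6 libraries: Pax7, the factor that defines satellite cells, was found at 221, 242 and 201 CPM in wild type and 231, 169 and 204 CPM in knockout. Myod1, the factor of activated myoblasts, stood at 138, 125 and 166 CPM in wild type and 201, 86.3 and 86.3 CPM in knockout. Neither differed past the threshold (Pax7 adjusted p = 0.517, Myod1 adjusted p = 0.874).

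Hoxa9 itself was lower in every knockout library than in every wild-type library. It stood at 14.7, 15.7 and 22.5 CPM in wild type and 6.46, 4.55 and 6.39 CPM in knockout. These levels rest on 239, 158 and 331 reads in wild type and on 43, 68 and 22 in knockout. The lowest wild-type value was above the highest knockout value. The log2 fold change was -1.63 ± 0.25 (SE), adjusted p = 0.00235, with offsets for GC content -1.68 (adjusted p = 0.00622). In young mice it was -0.67 (adjusted p = 0.0671), and the difference between the ages was -0.97 (adjusted p = 0.399). Without the 2 male libraries the log2 fold change was -1.44 (adjusted p = 0.0791), and without the 2 libraries with the most reads outside genes -1.76 (adjusted p = 0.0611). Residual reads in the knockout check the labels only in part, as the deleted part of the gene is not stated.

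In all, 2265 of 13540 genes passed an adjusted p of 0.05, which is 16.7% of those tested. Of these, 1289 were higher in knockout (9.52%) and 976 lower (7.21%). The rises were of moderate size, with a median log2 fold change of 0.74, 302 of them over 2-fold and 46 over 4-fold. The falls had a median size of 0.81, with 329 over 2-fold and 107 over 4-fold. The groups did not overlap for 1272 of the rises and 953 of the falls, against 21.6% and 20.4% of all tested genes without overlap in each direction, 42% in all. A fit against a minimum change of 2-fold called 0 genes, with 469 at an unadjusted p under 0.05. Scaled by library size alone, the split became 359 higher and 1827 lower, and with upper-quartile factors 1021 and 1268, since library size alone moved the median of all genes from -0.01 to -0.26. The number called depended on single libraries. It was 779 without knockout replicate 3, 925 without wild-type replicate 1, 1049 without wild-type replicate 2 and 1227 without wild-type replicate 3. It was 121 without the 2 male libraries, and 3 without wild-type replicate 2 and knockout replicate 3, where 2742 genes still had an unadjusted p under 0.05. All genes called at first and tested in these 6 fits kept the sign of their fold change. The fits reuse the libraries that chose the genes. In each knockout library all 2265 already lay on the called side of the wild-type mean. The kept signs are thus no separate support.

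Genes higher in knockout were poor in G and C, and genes lower in knockout were rich in them. The median transcript held 43.5% GC among the rises, 55.3% among the falls and 50.4% among all tested genes. Genes were cut by GC content into 10 bins of like size. In the lowest bin, 32.6% to 42.1%, 489 of 1327 genes were higher and 14 lower, with a median log2 fold change of 0.52. In the highest bin, 58.3% to 72.8%, 17 were higher and 206 lower, with a median of -0.29. Across genes, the level relative to the mean of all libraries rose with GC content in the 3 wild-type libraries (Spearman's rho 0.352, 0.224 and 0.353) and fell with it in the 3 knockout libraries (rho -0.329, -0.289 and -0.386). That mean is taken over both genotypes, so the opposite signs show only that the genotypes differ in the trend. The rises also had longer transcripts, with a median of 4175 bases against 3205 over all tested genes. When a smooth trend on GC content was entered as an offset for each library, 983 genes were called (7.26%), 436 higher (3.22%) and 547 lower (4.04%). The lowest bin then held 45 higher and 57 lower genes, and the highest 46 and 48. Both fits called 764 genes in the same direction (5.64%), 354 higher (2.61%) and 410 lower (3.03%). Whether the trend with GC content arose in the cells or in the libraries was not tested.

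**Figure D1:**
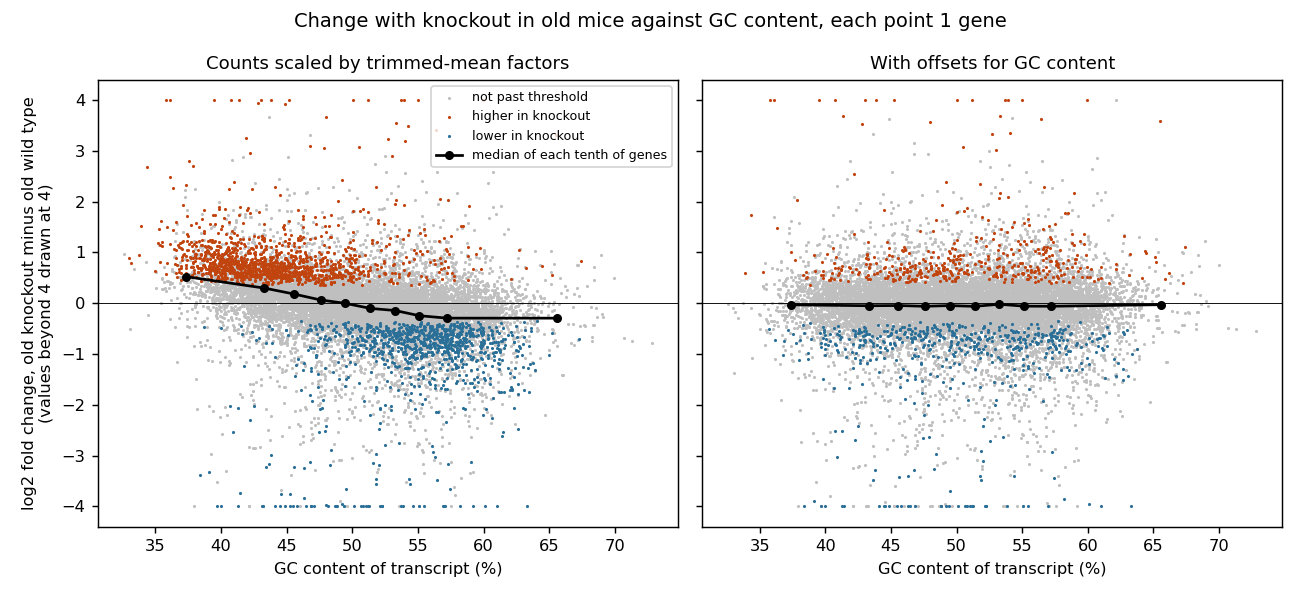
Log2 fold change (old knockout minus old wild type, y axis) against the GC content of the transcript in percent (x axis) for each tested gene, with genes past the threshold in colour and black points for the median of each of 10 GC bins. On the left the medians fall from 0.52 to -0.29, and on the right, with GC offsets, they stay between -0.06 and -0.02.

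The 3 sequences above show both cases. Xiap stood at 47.6, 55.2 and 49.6 CPM in wild type and 97.7, 106 and 127 CPM in knockout, with no overlap between the groups. Its log2 fold change was 1.12 ± 0.19 (SE), adjusted p = 0.00369 and became 0.36 (adjusted p = 0.112) with GC offsets. Numbl stood at 115, 106 and 136 CPM in wild type and 81.6, 87.9 and 76.99 CPM in knockout, also without overlap. It fell by 0.53 on the log2 scale (adjusted p = 0.0114), and with GC offsets the value was -0.25 (adjusted p = 0.155). Cilp2 rose in both fits in spite of its high GC content, by 3.32 and 3.59.

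Apart from Lars2 and Y-linked genes, the largest rises in both fits were mostly in genes of tendon and fibrous connective tissue. Among the 15 largest were Comp, a cartilage and tendon matrix protein, Tnmd, a membrane protein that marks tendon cells, Fmod, a proteoglycan that binds collagen, and Thbs4, a thrombospondin of tendon. Comp stood at 0.7998, 2.39 and 1.29 CPM in wild type and 6.91, 69.5 and 81.4 CPM in knockout. Tnmd stood at 0.246, 1.19 and 0.409 CPM in wild type and 3.005, 15.7 and 45.9 CPM in knockout. Fmod stood at 5.91, 7.95 and 9.94 CPM in wild type and 28.4, 145 and 415 CPM in knockout. In each of these 3 genes all knockout libraries were above all wild-type libraries, and knockout replicate 1 was the lowest of the 3. The log2 fold changes were 5.19 ± 0.90 (SE), adjusted p = 0.00717 for Comp, 5.18 ± 1.11 (SE), adjusted p = 0.0145 for Tnmd and 4.61 ± 0.86 (SE), adjusted p = 0.00935 for Fmod.

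Angptl7, a secreted angiopoietin-like protein, stood at 0.7998, 3.48 and 2.86 CPM in wild type and 13.8, 62.6 and 279 CPM in knockout (log2 fold change 5.66 ± 1.12 (SE), adjusted p = 0.011). Thbs4 stood at 4.92, 7.16 and 10.2 CPM in wild type and 39.4, 126 and 305 CPM in knockout (4.38 ± 0.79 (SE), adjusted p = 0.00821). Both were highest in knockout replicate 3 and lowest among the knockouts in replicate 1. Further rises of this kind were in Itgbl1 (4.18), an integrin-related secreted protein, Dcn (3.93), the collagen-binding proteoglycan decorin, Col11a1 (3.67), a fibrillar collagen chain, and Cilp2 (3.32). C3, the central complement component, rose by 3.56, from 3.38, 5.17 and 3.68 CPM to 37.1, 29.7 and 78.2 CPM, and Myoc, the secreted protein myocilin, by 3.20.

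A list of 28 tendon genes, written after earlier results of these data had shown tendon genes to stand apart, had 20 members higher and 0 lower in knockout. Its median log2 fold change was 2.78 against -0.01 for all tested genes, and with GC offsets 17 members were higher and the median was 2.55. For comparison, 9.52% of all tested genes were higher, and 3.22% with GC offsets. Kera, the proteoglycan keratocan, was the member with the largest fold change and stood at 0, 0.497 and 0.136 CPM in wild type and 2.25, 11.7 and 35.7 CPM in knockout. Its log2 fold change of 6.40 (adjusted p = 0.00767) rests on few wild-type reads. Scx, the transcription factor of tendon progenitors, did not follow: it stood at 25.6, 16.8 and 28.5 CPM in wild type and 16.7, 27.97 and 24.7 CPM in knockout, and the fitted difference was -0.03 on the log2 scale (adjusted p = 0.946). Egr1, an early response factor that also acts in tendon, had a value of -0.09 (adjusted p = 0.898). The summed level of the list was 2772, 5921 and 5738 CPM in knockout replicates 1, 2 and 3 and 2461 to 3112 CPM in wild type, a sum set mostly by Tnc, which did not pass (0.23, adjusted p = 0.754). The 2 libraries with the high sums are the male ones. Without them the median of the list was 0.87 and 2 members passed. Leaving out 1 library gave 21, 17 and 15 rises without knockout replicates 1, 2 and 3, and 13, 15 and 13 without wild-type replicates 1, 2 and 3, with 1 fall in the last. As the libraries are bulk, more cells of a type and more RNA per cell cannot be told apart.

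Of the 15 largest rises past both fits, 3 were the Y-linked genes Ddx3y, Eif2s3y and Kdm5d, which were high in the 2 male libraries. The 15 were chosen without overlap between the groups, so their direction in fits with fewer libraries followed from that choice. Without the male libraries, which leaves 1 knockout library, the log2 fold change was 7.39 for Lars2, 2.27 for Comp and 1.85 for Fmod. Without wild-type replicate 3, 9 of the 15 passed, and without wild-type replicate 1, 10 passed. In the other 4 fits that leave out 1 library, 12 to 14 passed.

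Lars2, which encodes the mitochondrial leucyl-tRNA synthetase, was the largest rise of all and took a large part of the reads in knockout. It stood at 659.9, 273 and 284 CPM in wild type and 67878, 6364 and 324109 CPM in knockout. Its share of gene reads was 0.0718%, 0.0304% and 0.0306% in wild type and 6.53%, 0.646% and 25.05% in knockout. The groups did not overlap, and the knockout libraries differed widely among themselves. Its log2 fold change was 8.35 ± 1.73 (SE), adjusted p = 0.013. It did not pass without wild-type replicate 2, without wild-type replicate 3 or without the male libraries. Reads with several alignments, per read counted in a gene, were at 2.95, 1.27 and 7.54 in knockout and 1.998, 1.85 and 1.69 in wild type. Among the old libraries, the 2 with the most such reads also held the most Lars2. In young mice such reads were at 1.66, 3.49 and 1.49 in knockout and 1.76, 3.22 and 2.66 in wild type. The Lars2 shares there were 2.50%, 8.92% and 0.484% in knockout and 0.0258%, 0.110% and 0.0523% in wild type. The part of such reads in the Lars2 value was not tested. Of 16 mitochondrial tRNA synthetases tested, Lars2 was the 1 that passed, and the median of the list was -0.03.

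**Figure D2:**
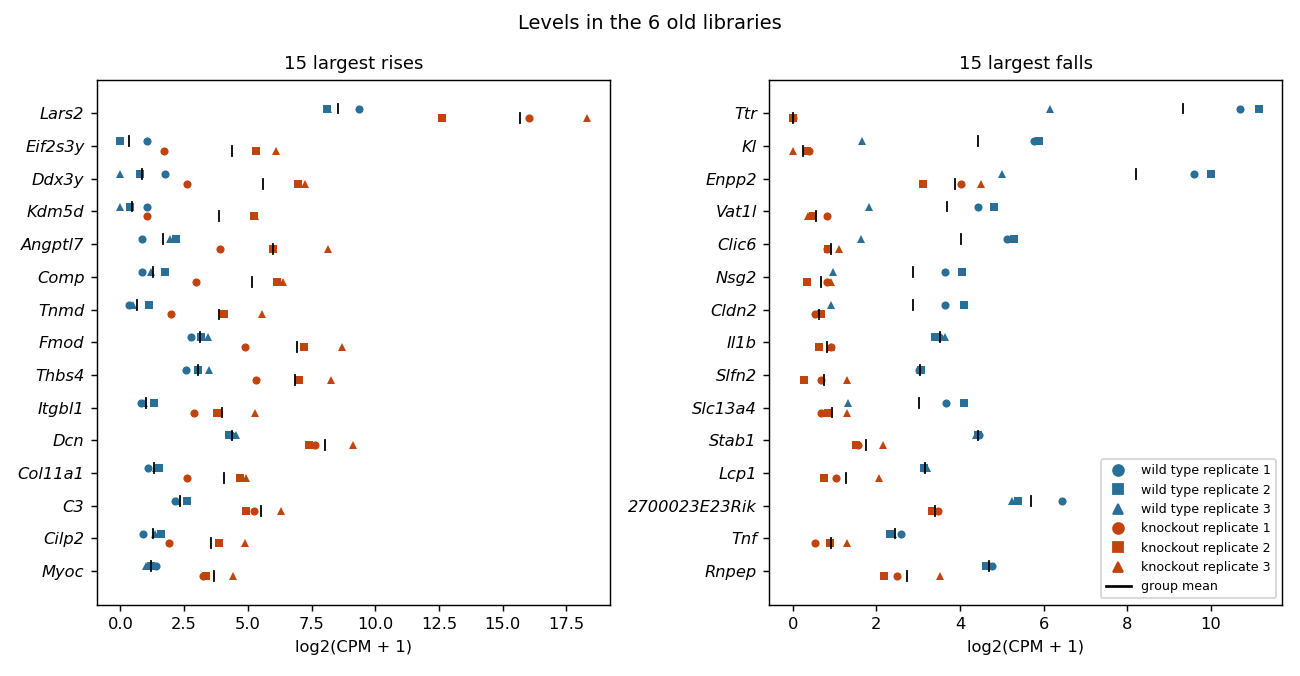
Level of each gene in the 6 old libraries as log2(CPM + 1) on the x axis, for the 15 largest rises (left) and the 15 largest falls (right) that passed both fits without overlap between the groups. Points are libraries and black bars are group means. Knockout replicate 1 is the lowest knockout library for Comp, Tnmd, Fmod and Thbs4, and wild-type replicate 3 is far below the other wild-type libraries for Ttr, Kl, Enpp2, Clic6 and Cldn2.

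Of 54 extracellular matrix genes, 11 were higher and 1 lower in knockout (median 0.38), beside 9.52% and 7.21% of all tested genes. With GC offsets 8 were higher and 1 lower (median 0.47), beside 3.22% and 4.04% of all tested genes. Without the male libraries 1 rose and 1 fell, and the median was 0.16. In young mice 0 were higher and 10 lower, beside 10.9% and 10% of all tested genes there, with a median of -0.22, and these counts are no test of a difference between the ages. Thbs2, a thrombospondin of connective tissue, stood at 37.96, 40.1 and 48.7 CPM in wild type and 94.5, 109 and 219.9 CPM in knockout (1.73 ± 0.38 (SE), adjusted p = 0.0149). Lama4, a laminin chain of vessel and nerve basement membranes, stood at 18.8, 20.6 and 21.2 CPM in wild type and 74.1, 30.6 and 56.7 CPM in knockout (1.40 ± 0.38 (SE), adjusted p = 0.0293), and became 1.39 (adjusted p = 0.0505) with GC offsets. Lum, the proteoglycan lumican, overlapped between the groups and stood at 1.17, 3.28 and 0.817 CPM in wild type and 2.85, 11.4 and 36.3 CPM in knockout, with 2.81 (adjusted p = 0.081) with GC offsets. The single fall was Col5a3, a chain of the fibril-nucleating collagen V, from 946, 889 and 977 CPM to 402, 587 and 541 CPM (-0.88 ± 0.16 (SE), adjusted p = 0.00494). The number of rises was 14, 5 and 4 without knockout replicates 1, 2 and 3, and 4, 3 and 4 without wild-type replicates 1, 2 and 3. Of 40 matrix proteases and their inhibitors, 8 rose and 0 fell, among them Mmp2, a gelatinase, from 63.8, 72.3 and 57.1 CPM to 78.1, 132 and 169 CPM. The rises then numbered 5, 6 and 1 without knockout replicates 1, 2 and 3 and 1, 1 and 1 without wild-type replicates 1, 2 and 3. With GC offsets 4 of the proteases and inhibitors rose and 0 fell. Of 21 integrins, 5 rose and 2 fell, and with GC offsets 1 rose and 0 fell. Rises numbered 3, 4, 1, 1, 2 and 2 and falls 0, 1, 0, 0, 0 and 0 without knockout replicates 1, 2 and 3 and then wild-type replicates 1, 2 and 3. Itga11, a collagen receptor subunit, rose by 1.34, and Itga5, the fibronectin receptor subunit, fell by 0.81 on the log2 scale and was at -0.57 (adjusted p = 0.14) with GC offsets.

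Markers of other stromal cells were examined beside a background of 9.52% of all tested genes higher in knockout. Of 18 pericyte and smooth muscle markers 4 rose and 0 fell, 3 of them also with GC offsets. The rises then numbered 2, 6 and 1 without knockout replicates 1, 2 and 3 and 1, 1 and 2 without wild-type replicates 1, 2 and 3. Kcnj8 and Abcc9, which together form a potassium channel of pericytes, stood at 4.61, 4.77 and 1.97 CPM and 29.5, 34.5 and 22.8 CPM in wild type and at 19.1, 8.498 and 20.05 CPM and 121, 50.4 and 103 CPM in knockout. In both genes knockout replicates 1 and 3 were above knockout replicate 2, and Abcc9 was at 1.46 (adjusted p = 0.0735) with GC offsets. Cdh19, an adhesion protein of Schwann cells, stood at 6.399, 9.44 and 6.95 CPM in wild type and 62.8, 17.8 and 34.6 CPM in knockout (2.34 ± 0.58 (SE), adjusted p = 0.0245) and was at 1.62 (adjusted p = 0.136) with GC offsets. Of 17 Schwann and neural markers 2 rose and 0 fell, and of 25 fibroblast and fibro-adipogenic markers 3 rose and 1 fell, shares of rises near that background. With GC offsets 1 Schwann marker rose, and 1 fibroblast marker rose and 2 fell. Rises were down to 0 without wild-type replicate 1, 2 or 3 for Schwann and neural markers and 1 without knockout replicate 3 or wild-type replicate 2 or 3 for fibroblast markers. The fall was Tcf7l2, a Wnt effector that marks muscle fibroblasts, from 29.1, 26.2 and 24.9 CPM to 13.4, 12.3 and 13.9 CPM (-1.03 ± 0.23 (SE), adjusted p = 0.0114). Of 8 neutrophil granule genes 3 rose, but from few reads: S100a8 stood at 0.738, 0.596 and 0.613 CPM in wild type and 4.36, 1.74 and 25.9 CPM in knockout, with an adjusted p of 0.0704 with GC offsets, and 0 of the 3 passed without knockout replicate 3, wild-type replicate 1 or wild-type replicate 3. The 10 lymphocyte markers in the files were too low to be tested.

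The largest falls were in genes of the choroid plexus, the epithelium that secretes cerebrospinal fluid. Ttr, the thyroxine carrier transthyretin of choroid plexus and liver, stood at 1657, 2279.9 and 70.7 CPM in wild type and at 0 in all 3 knockout libraries. Its wild-type mean, set mostly by replicates 1 and 2, was at least 11150-fold above a floor of 3 reads over the knockout group. Kl, the klotho co-receptor of a phosphate-regulating hormone, stood at 53.2, 58.7 and 2.18 CPM in wild type and 0.3005, 0.268 and 0 CPM in knockout. Enpp2, the enzyme autotaxin, stood at 774, 1034 and 31.1 CPM in wild type and 15.2, 7.63 and 21.5 CPM in knockout. Wild-type replicates 1 and 2 were high and wild-type replicate 3 was far lower for these 3 genes, yet still above every knockout library. Kl fell by 7.25 on the log2 scale (adjusted p = 0.0119) and Enpp2 by 5.46 (adjusted p = 0.0153).

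Of 26 choroid plexus genes, a list also written after earlier results of these data, 15 were lower and 0 higher, with a median of -3.39. With GC offsets 10 were lower and the median was -3.16. Among all tested genes in old mice 7.21% were lower, and 4.04% with GC offsets. Clic6, a chloride channel protein, Cldn2, a claudin of leaky epithelia, and Slc13a4, a sulphate transporter, fell by 4.84, 4.07 and 3.47 on the log2 scale. Kcne2, a potassium channel subunit, stood at 10.2, 15.6 and 0.885 CPM in wild type and 0.1502, 0 and 0 CPM in knockout. Otx2, the homeobox factor of choroid plexus, stood at 5.23, 7.16 and 0.341 CPM in wild type and at 0 in knockout. Its wild-type mean, set mostly by replicates 1 and 2, was at least 35.4-fold above a floor of 3 reads. Kcne2 and Otx2 both passed (0.0325 and 0.0446, adjusted), and with GC offsets Otx2 had an adjusted p of 0.0647. Igf2 and Igfbp2 belong to this list and to the lists of growth factor genes. The number of falls was 5, 2 and 2 without knockout replicates 1, 2 and 3, 3 without wild-type replicate 1, 3 without wild-type replicate 2 and 19 without wild-type replicate 3. It was 0 without the male libraries, with a median of -2.87. In young mice, where 10% of all tested genes were lower in knockout, 17 of the 26 were lower. Vat1l and Nsg2, which lie outside the list, had the same pattern over libraries, with Vat1l at 20.6, 27.3 and 2.52 CPM in wild type and 0.751, 0.402 and 0.291 CPM in knockout and Nsg2 at 11.6, 15.5 and 0.953 CPM in wild type and 0.751, 0.268 and 0.872 CPM in knockout.

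A second group of falls comprised genes of macrophages and inflammation. Il1b, the cytokine interleukin 1 beta, stood at 10.3, 9.54 and 11.4 CPM in wild type and 0.901, 0.535 and 0.872 CPM in knockout. Its log2 fold change was -3.84 ± 0.52 (SE), adjusted p = 0.00158, and all knockout libraries were below 1 CPM. Tnf, the cytokine tumour necrosis factor, stood at 5.04, 3.98 and 4.29 CPM in wild type and 0.451, 0.8699 and 1.45 CPM in knockout (-2.35 ± 0.46 (SE), adjusted p = 0.00658). Clec4e, a receptor of macrophages for mycobacterial glycolipids and dying cells, stood at 7.51, 4.87 and 7.83 CPM in wild type and 0.1502, 0.0669 and 1.16 CPM in knockout (log2 fold change -4.52, adjusted p = 0.0112). In these 3 genes no knockout library reached a wild-type level. Il1a, the related cytokine, and Nlrp3, the sensor of the inflammasome that processes interleukin 1 beta, fell to between 0 and 0.291 CPM in knockout, from 1.97, 4.07 and 1.498 CPM and 5.23, 6.26 and 3.68 CPM. Beside 7.21% of all tested genes lower and 9.52% higher, 7 of 27 inflammatory cytokine and signalling genes fell and 3 rose. Their median was -0.45 (5 fell and 1 rose with GC offsets). Il6, a cytokine that muscle cells also make, was among the rises, from 38.9, 33.7 and 41.7 CPM to 94.05, 58.8 and 112 CPM (1.20 ± 0.36 (SE), adjusted p = 0.0419), and stood at 0.59 (adjusted p = 0.315) with GC offsets. The 7 falls became 5, 5 and 6 without knockout replicates 1, 2 and 3 and 5 without each wild-type replicate. The 3 rises became 2, 2 and 0 without knockout replicates 1, 2 and 3 and 1, 0 and 0 without wild-type replicates 1, 2 and 3.

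Markers of macrophages and monocytes were lower beside them. Of 24 tested markers 23 had negative values and 5 passed, 3 also with GC offsets, with a median of -2.10. Over all tested genes 7.21% were lower, and 4.04% with GC offsets. The summed level of the list was 273, 234 and 236 CPM in wild type and 38.2, 33.5 and 148 CPM in knockout. Cd68, a lysosomal protein of macrophages, stood at 14.5, 15.2 and 13.9 CPM in wild type and 3.46, 3.75 and 2.61 CPM in knockout (-2.11 ± 0.45 (SE), adjusted p = 0.00937), and Mrc1, the mannose receptor, at 20.98, 16.99 and 12.9 CPM in wild type and 0.901, 1.204 and 4.36 CPM in knockout (-3.22 ± 0.96 (SE), adjusted p = 0.0452). Fcer1g, the shared chain of Fc receptors, fell by 2.97 on the log2 scale, and Cd14, the co-receptor for bacterial endotoxin, was called at -2.00. With GC offsets Mrc1 had an adjusted p of 0.0505 and Cd14 of 0.082. Csf1r, the receptor for the macrophage growth factor, did not pass, with 10.4, 13.2 and 12.1 CPM in wild type and 1.35, 1.67 and 6.101 CPM in knockout and an adjusted p of 0.153. Among the 15 largest falls, Stab1, a scavenger receptor of macrophages and sinusoidal vessels, stood at 20.8, 20.5 and 19.95 CPM in wild type and 1.95, 1.87 and 3.49 CPM in knockout, Lcp1, an actin-bundling protein of white blood cells, at 7.75, 7.75 and 8.24 CPM in wild type and 1.05, 0.669 and 3.196 CPM in knockout, and Slfn2, an interferon-induced protein of immune cells, at 7.14, 7.35 and 7.29 CPM in wild type and 0.601, 0.201 and 1.45 CPM in knockout. The markers past the threshold numbered 2, 1 and 4 without knockout replicates 1, 2 and 3 and 1, 2 and 2 without wild-type replicates 1, 2 and 3, and 0 without the male libraries, where the median was -2.92. As the libraries are bulk, fewer macrophages and less RNA per cell cannot be told apart. The part of either in the falls of Il1b, Il1a, Nlrp3, Tnf and Clec4e was not tested.

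2 further falls among the 15 were in other classes. Rnpep, an arginine aminopeptidase, stood at 26.1, 23.7 and 25.3 CPM in wild type and 4.66, 3.55 and 10.5 CPM in knockout (-2.15 ± 0.29 (SE), adjusted p = 0.00158). It was the only one of the 15 that passed without the 2 male libraries, and it passed in all 6 fits that leave out 1 library. The uncharacterised transcript 2700023E23Rik stood at 85.9, 40.7 and 37.05 CPM in wild type and 10.1, 9.03 and 9.59 CPM in knockout. Of the 15 falls, 14 passed in DESeq2. Between 5 (without knockout replicate 2) and 13 (without wild-type replicate 3) passed without 1 library, with 8, 9, 7 and 7 without knockout replicates 1 and 3 and wild-type replicates 1 and 2.

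**Figure D3:**
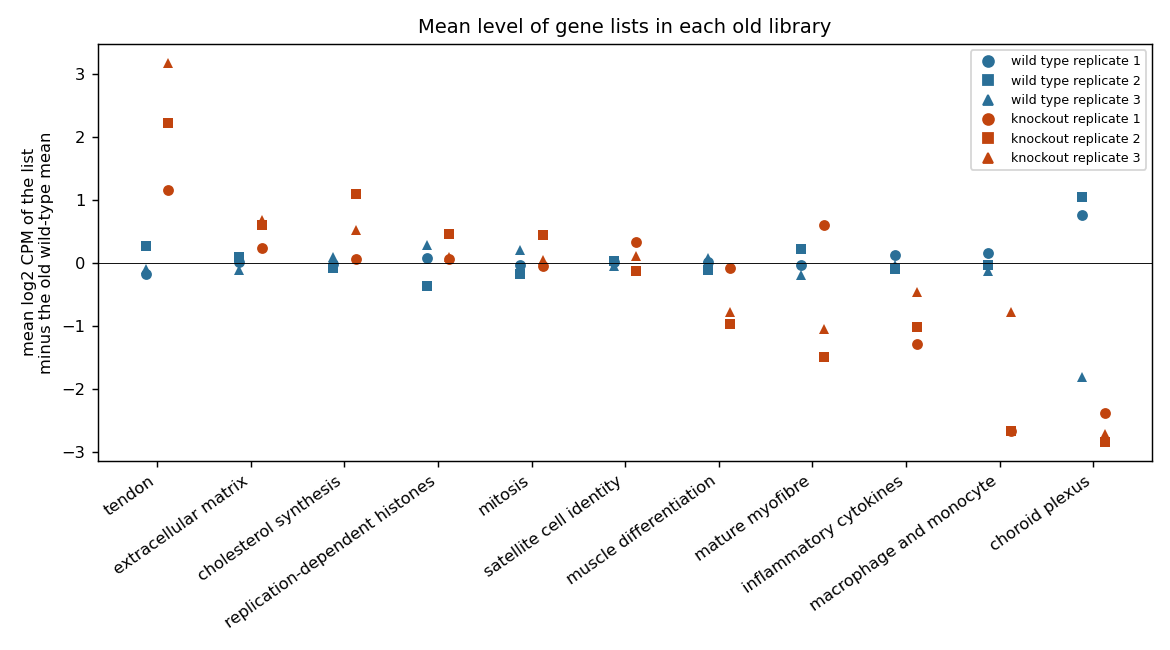
Mean log2 CPM of 11 gene lists in each old library, relative to the mean of the 3 wild-type libraries (y axis, log2 units). Points are libraries. Knockout replicates 2 and 3 stand below knockout replicate 1 for muscle differentiation and mature myofibre genes, and wild-type replicate 3 stands apart from the other wild-type libraries for choroid plexus genes.

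Some muscle differentiation genes were lower without Hoxa9, while the knockout libraries differed in their summed level. The sum over the list was 16677, 17761 and 19026 CPM in wild type and 21588, 15255 and 14969 CPM in knockout, so replicate 1 stood above and replicates 2 and 3 below every wild-type library. Of 42 genes 10 fell and 0 rose, with a median of -0.40, beside 7.21% of all tested genes lower. With GC offsets 8 fell, beside 4.04% of all tested genes. Tnni1, the slow troponin I of developing muscle, stood at 166, 144 and 195 CPM in wild type and 75.1, 36.5 and 57.5 CPM in knockout (-1.59 ± 0.30 (SE), adjusted p = 0.00773). Tnnc1, the slow troponin C, stood at 21.1, 15.6 and 29.9 CPM in wild type and 11.3, 5.96 and 4.94 CPM in knockout (-1.57 ± 0.39 (SE), adjusted p = 0.0203). Both were highest among the knockouts in replicate 1. Mef2d, a transcription factor that drives late muscle genes, had an even fall, with 166, 165 and 169 CPM in wild type and 63.2, 62.5 and 50.3 CPM in knockout (-1.50 ± 0.14 (SE), adjusted p = 0.000489). Igf2, the growth factor that promotes myoblast differentiation, stood at 1021, 1240.5 and 949 CPM in wild type and 666, 173 and 265 CPM in knockout and fell by 1.54 on the log2 scale (with GC offsets -1.34 (adjusted p = 0.0599)). Myog, the factor that starts terminal differentiation, did not pass, with 802, 547 and 829.6 CPM in wild type and 775, 519.9 and 575 CPM in knockout. The number of falls was 20 without knockout replicate 1, 8 without replicate 2 and 5 without replicate 3. Without wild-type replicates 1, 2 and 3 it was 6, 9 and 7. Without the 2 male libraries it was 1, with 1 rise and a median of -0.05.

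Of 26 genes of the mature myofibre, 0 passed in edgeR's test, with a median of -0.27. The summed level was 3581, 3568 and 3450 CPM in wild type and 4037, 2346 and 2328 CPM in knockout, so knockout replicate 1 was above and replicates 2 and 3 below every wild-type library. Without knockout replicate 1, 16 of the 26 were lower. Actn3, the actinin of fast fibres, stood at 498, 419.6 and 449 CPM in wild type and 436, 485 and 449 CPM in knockout, and Aldoa, the muscle aldolase, at 812, 737 and 849 CPM in wild type and 867, 628 and 653 CPM in knockout. In the dystrophin complex, which ties the fibre to its matrix, 3 of 20 genes rose and 0 fell, beside 9.52% of all tested genes higher. The 3 rises were down to 1 without knockout replicate 3 or wild-type replicate 2. Sntb2, a syntrophin adaptor, stood at 88.04, 97.4 and 92.3 CPM in wild type and 276, 198 and 184 CPM in knockout (1.25 ± 0.23 (SE), adjusted p = 0.00551), with all knockout libraries above all wild-type libraries.

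Identity genes of satellite cells held calls in both directions. Of 27 markers 3 rose and 2 fell, a share near the 16.7% of all tested genes, with a median of 0.19, and with GC offsets 2 rose and 0 fell. The rises were down to 1 without knockout replicate 1 or wild-type replicate 1, 2 or 3, and the falls to 0 without knockout replicate 3 or wild-type replicate 1. Itgb1, the integrin chain through which the cells hold their niche, rose from 838, 723 and 798 CPM to 1185, 1414 and 1237 CPM (0.70 ± 0.14 (SE), adjusted p = 0.00671), and stood at 0.43 (adjusted p = 0.0638) with GC offsets. Heyl, a Notch target, fell from 296, 273 and 249.8 CPM to 201, 176 and 191 CPM (-0.53 ± 0.12 (SE), adjusted p = 0.0138), and stood at -0.34 (adjusted p = 0.0933) with GC offsets. Fgfr4, a growth factor receptor of myoblasts, rose by 0.46 and by 0.72 with GC offsets. Megf10, a receptor that restrains differentiation, rose by 0.52 and was at 0.42 (adjusted p = 0.0922) with GC offsets.

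Hox genes near and far gave small counts, set beside 9.52% of all tested genes higher and 7.21% lower. Of 9 tested genes of the HoxA cluster only Hoxa9 passed in this fit, and 8 of the 9 had negative values (median -0.78). Of 11 genes of the other Hox clusters 3 fell and 0 rose: Hoxc8 stood at 4.37, 6.06 and 4.77 CPM in wild type and 0.751, 1.74 and 2.91 CPM in knockout, Hoxc11 at 12.8, 11.03 and 11.6 CPM in wild type and 7.36, 5.49 and 4.65 CPM in knockout and Hoxc6 at 7.08, 8.35 and 10.7 CPM in wild type and 4.36, 4.82 and 4.07 CPM in knockout. With GC offsets Hoxc8 and Hoxc11 passed and Hoxc6 did not. The 10 genes on either side of Hoxa9 on chromosome 6, in the order of the RefSeq table, held 2 rises and 0 falls, beside 9.52% of all tested genes higher. The rises were Tax1bp1, an autophagy adaptor (0.48), and Tril, an adaptor of Toll-like receptors (1.45), both named because the count is small, and with GC offsets Tax1bp1 was at 0.06 (adjusted p = 0.805). The falls in the other Hox clusters were down to 1 without knockout replicate 1, 2 or 3 or wild-type replicate 2.

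Among signalling pathways, TGF-beta and BMP genes showed 12 rises and 3 falls of 53 tested (7 and 1 with GC offsets), with a median of 0.25. Of all tested genes 9.52% rose and 7.21% fell (3.22% and 4.04% with GC offsets). Ltbp2, a microfibril protein of the latent TGF-beta binding family, stood at 12.9, 9.64 and 8.104 CPM in wild type and 14.1, 43.2 and 29.9 CPM in knockout (1.52 ± 0.36 (SE), adjusted p = 0.0151). Chrdl1, a secreted BMP antagonist, stood at 2.95, 3.68 and 2.52 CPM in wild type and 14.9, 9.101 and 25.3 CPM in knockout and rose by 2.39, with 1.89 (adjusted p = 0.132) with GC offsets, while Gdf15, a stress-induced member of the TGF-beta superfamily, fell from 8.43, 6.96 and 13.7 CPM to 3.46, 2.74 and 2.32 CPM. Skil, an inhibitor of Smad factors, rose by 1.39 and was at 0.89 (adjusted p = 0.13) with GC offsets. The rises numbered 8, 12 and 5 without knockout replicates 1, 2 and 3, and 6, 5 and 7 without wild-type replicates 1, 2 and 3. Of 57 Wnt genes 8 rose and 10 fell (6 and 6 with GC offsets). Leaving out knockout replicates 1, 2 and 3 and then wild-type replicates 1, 2 and 3 gave 7, 7, 4, 4, 4 and 6 rises and 9, 6, 4, 6, 4 and 6 falls. Bcl9 and Bcl9l, co-activators of beta-catenin, stood at 33.9, 40.2 and 35.5 CPM and 55.8, 45.3 and 57.2 CPM in wild type and at 10.97, 14.5 and 14.2 CPM and 17.1, 17.1 and 23.5 CPM in knockout. Bcl9 fell by 1.46 and Bcl9l by 1.48 on the log2 scale, with no overlap in either gene. Tcf7l1, a transcription factor of the pathway, fell by 1.49 and was at -1.22 (adjusted p = 0.0812) with GC offsets, and Ror2, a receptor for Wnt5a, rose from 0.7998, 0.894 and 0.749 CPM to 2.55, 3.48 and 3.196 CPM.

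Other pathways are set beside the 16.7% of all tested genes called. Of 30 Notch genes 2 rose and 3 fell, and with GC offsets 0 rose and 1 fell. The Notch rises were down to 0 without knockout replicate 2 or wild-type replicate 1 or 2, and the falls to 0 without knockout replicate 3. Of 47 JAK-STAT genes 9 rose and 2 fell, and 1 rose with GC offsets. Rises numbered 6, 9, 4, 4, 4 and 5 and falls 2, 2, 1, 1, 1 and 1 without knockout replicates 1, 2 and 3 and then wild-type replicates 1, 2 and 3. Osm, the cytokine oncostatin M of macrophages, stood at 3.01, 2.29 and 2.38 CPM in wild type and 0, 0.134 and 0.872 CPM in knockout, and Lepr, the leptin receptor, at 4.92, 5.07 and 2.93 CPM in wild type and 10.1, 10.6 and 18.6 CPM in knockout. With GC offsets neither passed (Osm -3.30 (adjusted p = 0.0797), Lepr 1.12 (adjusted p = 0.056)). Of 38 interferon-stimulated genes 1 rose and 6 fell. Oasl1, an antiviral protein, stood at 10.3, 10.04 and 9.33 CPM in wild type and 3.91, 2.28 and 4.94 CPM in knockout (-1.49 ± 0.31 (SE), adjusted p = 0.00869). In the fits without 1 library, knockout 1 to 3 and then wild type 1 to 3, there were 0, 5, 0, 0, 0 and 0 rises and 5, 3, 2, 3, 5 and 3 falls. Of 43 genes of the IGF, PI3K and mTOR pathway 6 rose and 7 fell, and 1 each with GC offsets. Leaving out knockout replicates 1, 2 and 3 and then wild-type replicates 1, 2 and 3 gave 4, 3, 3, 4, 2 and 2 rises and 4, 2, 1, 1, 2 and 6 falls. Igfbp7, an IGF-binding protein of stroma, rose from 80.97, 79.5 and 84.2 CPM to 169.8, 124 and 172 CPM and kept its call with GC offsets (1.19 (adjusted p = 0.0113)). Igfbp2 fell by 1.65, had an adjusted p of 0.0695 with GC offsets and was low in wild-type replicate 3 as well, with 64.5, 69.2 and 29.8 CPM in wild type and 12.6, 20.7 and 18.6 CPM in knockout. Of 37 FGF and ERK genes 5 rose and 3 fell. Rises numbered 4, 2, 3, 2, 2 and 2 and falls 1, 2, 1, 1, 1 and 2 without knockout replicates 1, 2 and 3 and then wild-type replicates 1, 2 and 3. Dusp6, a phosphatase induced by ERK, rose from 119, 103 and 97.5 CPM to 164, 171 and 202 CPM (0.75 ± 0.14 (SE), adjusted p = 0.00477), and Spred3, an inhibitor of the pathway, fell by 1.43.

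In the p53 axis the factor and its best known target fell together. Trp53 stood at 113, 99.6 and 98.1 CPM in wild type and 39.5, 54.7 and 31.96 CPM in knockout (-1.28 ± 0.24 (SE), adjusted p = 0.00553). Cdkn1a, the cell cycle inhibitor p21, stood at 183, 134 and 202 CPM in wild type and 74.4, 97.9 and 77.6 CPM in knockout (-1.05 ± 0.20 (SE), adjusted p = 0.00629). In both genes the highest knockout value was below the lowest wild-type value, and both passed with GC offsets (adjusted p = 0.0173 and 0.0206). Rb1, the retinoblastoma protein, rose from 51.5, 49.7 and 46.2 CPM to 119, 84.98 and 99.1 CPM and was at 0.56 (adjusted p = 0.0636) with GC offsets. The list of 38 genes held 7 rises and 4 falls, beside 9.52% and 7.21% of all tested genes, and a median of 0.04. With GC offsets it held 1 rise and 3 falls, beside 3.22% and 4.04% of all tested genes. In the fits without 1 library, knockout 1 to 3 and then wild type 1 to 3, there were 6, 6, 3, 4, 3 and 5 rises and 3, 3, 2, 3, 3 and 3 falls. Of 41 mitosis genes 4 rose and 0 fell, with 0 of them past the threshold with GC offsets. Of 37 S phase genes 3 rose and 0 fell. Both shares of rises were near the 9.52% of all tested genes. These rises were down to 0 without knockout replicate 2 or 3 or wild-type replicate 1 or 2 for mitosis, and for S phase to 1 without knockout replicate 3 or wild-type replicate 2. Mcm4, a helicase subunit of replication, rose by 0.81 and kept its call. Mki67, the proliferation marker Ki-67, stood at 240.3, 264 and 308 CPM in wild type and 383, 506 and 412 CPM in knockout, a rise of 0.68 that became 0.50 (adjusted p = 0.14) with GC offsets.

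Calls in complexes of chromatin and chromosomes changed with GC offsets. Over all tested genes 9.52% rose and 7.21% fell, and with GC offsets 3.22% and 4.04%. Of 25 cohesin and condensin genes, which hold and compact chromosomes, 11 rose and 0 fell, with a median of 0.57. The median transcript of the list held 42.3% GC, and with GC offsets 1 member, Smc6, passed and the median was 0.07. Smc6, a subunit of a complex that acts in recombination repair, stood at 101, 92.03 and 102 CPM in wild type and 204, 196 and 199.9 CPM in knockout (1.02 ± 0.13 (SE), adjusted p = 0.00157). Stag2, a cohesin subunit, stood at 144, 138 and 146 CPM in wild type and 300.02, 239.6 and 297 CPM in knockout and was at 0.29 (adjusted p = 0.115) with GC offsets. The rises numbered 7 without wild-type replicate 1 and 8 to 10 without any other single library. Of 31 Polycomb genes 4 rose and 5 fell, and Pcgf2, a subunit of Polycomb repressive complex 1, was the one called with GC offsets. It stood at 16.3, 16.7 and 16.4 CPM in wild type and 3.91, 5.89 and 4.07 CPM in knockout (-1.79 ± 0.25 (SE), adjusted p = 0.00162), and fell in young mice too, -1.21 (adjusted p = 0.0043). Polycomb rises were down to 0 without wild-type replicate 1 or 2, and falls to 1 without knockout replicate 3 or wild-type replicate 1. Of 20 Trithorax and COMPASS genes, a list that includes methyltransferases of histone H3, 0 rose and 3 fell, with falls down to 1 without knockout replicate 3. Setd1a, a methyltransferase of this class, stood at 114, 122 and 113 CPM in wild type and 64.2, 61.6 and 52.01 CPM in knockout (-0.97 ± 0.17 (SE), adjusted p = 0.00348), with -0.74 (adjusted p = 0.0218) with GC offsets. Kdm5c, an X-linked demethylase that escapes X inactivation in females, was lowest in the 2 male libraries, with 368, 394 and 353 CPM in wild type and 291, 206 and 188 CPM in knockout. Its relation to sex was not tested.

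DNA repair and histone genes held calls in both directions. Over all tested genes 9.52% rose and 7.21% fell (3.22% and 4.04% with GC offsets). Of 47 repair genes 8 rose and 3 fell, 2 and 1 with GC offsets, with rises down to 5 without wild-type replicate 1 and falls to 0 without knockout replicate 1 or 3 or wild-type replicate 2. Atm and Prkdc, kinases of the DNA damage response, stood at 51.2, 55.1 and 50.9 CPM and 27.7, 31.5 and 34.1 CPM in wild type and at 106, 106 and 105 CPM and 66.4, 60.6 and 65.7 CPM in knockout. Atm passed with GC offsets at 0.62 (adjusted p = 0.0336) and Prkdc at 0.69 (adjusted p = 0.047). Atr, a kinase of stalled replication forks, and Brca2, which loads the recombinase, rose by 1.02 and 0.88 and lost their calls with GC offsets, at 0.52 (adjusted p = 0.11) and 0.48 (adjusted p = 0.0973). Of 55 replication-dependent histone genes 7 rose and 2 fell, and with GC offsets 9 rose and 0 fell, with small counts: Hist1h2bn stood at 9.04, 5.17 and 8.31 CPM in wild type and 14.6, 16.8 and 15.1 CPM in knockout. Histone genes are close copies, so reads may be shared among them. Without knockout replicate 1, 3 histone genes rose, without wild-type replicate 3, 2 rose, and without any other single library 0 rose. Of 33 chromatin remodellers 2 rose and 4 fell, with falls down to 0 without knockout replicate 3. Of 318 genes with names in Zfp, mostly zinc finger factors, 50 rose and 28 fell, and with GC offsets 8 rose and 14 fell. Leaving out knockout replicates 1, 2 and 3 and then wild-type replicates 1, 2 and 3 gave 40, 38, 24, 22, 26 and 28 rises and 17, 19, 12, 17, 16 and 17 falls. Zfp943, at 3.51, 4.17 and 3.75 CPM in wild type and 14.7, 12.6 and 16.6 CPM in knockout, was one of those that passed before (1.93) and not after (1.20 (adjusted p = 0.0545)). Zinc finger genes form families of near copies, and their values are uncertain.

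Splicing genes called with GC offsets were all lower in knockout. Over all tested genes 9.52% rose and 7.21% fell, and with GC offsets 3.22% and 4.04%. Of 51 spliceosome genes 6 rose and 7 fell, and with GC offsets 0 rose and 9 fell, with a median of -0.28 against -0.05 for all genes. Rises numbered 5, 5, 2, 3, 3 and 4 and falls 5, 8, 2, 4, 4 and 6 without knockout replicates 1, 2 and 3 and then wild-type replicates 1, 2 and 3. Sf3a2, a subunit of the complex that recognises the branch site, stood at 61.9, 61.5 and 66.1 CPM in wild type and 19.8, 21.9 and 15.4 CPM in knockout (-1.71 ± 0.24 (SE), adjusted p = 0.00186). Srrm1, a splicing coactivator, stood at 117, 128 and 107 CPM in wild type and 68.1, 64.5 and 57.8 CPM in knockout (-0.88 ± 0.19 (SE), adjusted p = 0.00995). Neither gene overlapped between the groups, and both passed with GC offsets (adjusted p = 0.00671 and 0.0262). Of 32 Mediator genes 2 rose, of 13 RNA polymerase II subunits 1 rose and 2 fell, and 0 of either list passed with GC offsets. The Mediator rises were down to 0 without knockout replicate 3 or wild-type replicate 2, and the polymerase rises to 0 without knockout replicate 2 or 3 or wild-type replicate 1, 2 or 3 and falls to 0 without knockout replicate 3 or wild-type replicate 1 or 3. Of 28 nuclear pore genes 1 rose and 4 fell, with falls down to 1 without knockout replicate 3 or wild-type replicate 1 or 2. Pom121, a membrane protein of the pore, fell from 85.6, 84.6 and 73.3 CPM to 35.8, 40.8 and 32.8 CPM.

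Calls in translation and energy metabolism ran in both directions, except in glycolysis, and are set beside 16.7% of all tested genes called. Of 76 cytosolic ribosomal protein genes 6 rose and 5 fell. In the fits without 1 library, knockout 1 to 3 and then wild type 1 to 3, there were 5, 6, 1, 2, 1 and 4 rises and 2, 2, 0, 2, 4 and 2 falls. Rpl15 stood at 24.1, 19.1 and 22.95 CPM in wild type and 48.5, 48.4 and 58.4 CPM in knockout (1.22 ± 0.19 (SE), adjusted p = 0.00235) and Rpl3 at 127, 116 and 150.3 CPM in wild type and 88.6, 50.1 and 55.5 CPM in knockout (-1.02 ± 0.24 (SE), adjusted p = 0.0159), 2 genes of the same subunit with opposite changes. Many ribosomal protein genes have processed copies in the genome, and reads may be split among them. Of 73 mitochondrial ribosomal proteins 1 rose and 4 fell, and of 71 nuclear genes of the respiratory chain 4 rose and 2 fell. The falls of mitochondrial ribosomal proteins were down to 1 without knockout replicate 1 or 3 or wild-type replicate 1 or 3, and the respiratory rises to 1 without knockout replicate 3 or wild-type replicate 1. Of 20 glycolysis genes 0 rose and 4 fell, with a median of -0.30, and 0 passed with GC offsets. These falls were down to 0 without knockout replicate 3. Gpi1, the glucose phosphate isomerase, stood at 251, 226 and 256 CPM in wild type and 163, 181 and 159.8 CPM in knockout, and Hk1, the hexokinase of most tissues, at 196, 194 and 211 CPM in wild type and 157, 122 and 95.01 CPM in knockout. Gapdh stood at 7.75, 10.8 and 10.4 CPM in wild type and 5.86, 3.61 and 3.49 CPM in knockout (-1.15 ± 0.33 (SE), adjusted p = 0.0301). It has many pseudogene copies, so its value is uncertain.

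Cholesterol synthesis genes were highest in knockout replicate 2. Of 21 genes 4 rose and 0 fell (median 0.65), and with GC offsets 1 rose, beside 9.52% and 3.22% of all tested genes higher. Insig1, the sterol sensor of the pathway, stood at 23.6, 17.9 and 24.8 CPM in wild type and 32.2, 101 and 56.1 CPM in knockout (1.52 ± 0.36 (SE), adjusted p = 0.0181). Cyp51, which removes a methyl group from lanosterol, stood at 35.3, 24.3 and 41.00 CPM in wild type and 39.5, 167 and 77.9 CPM in knockout, with overlap between the groups, and was at 1.32 (adjusted p = 0.112) with GC offsets. In both genes knockout replicate 2 was far above the others. Without it 2 members rose and the median was 0.20. Without knockout replicate 1, 9 rose, and without wild-type replicate 1 or 2, 1 rose.

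Circadian clock genes were among the calls found at both ages. Per2 and Per3, repressors of the clock loop, stood at 37.3, 47.5 and 40.04 CPM and 10.8, 14.6 and 9.47 CPM in wild type and at 119.6, 109 and 110.4 CPM and 38.9, 26.6 and 37.2 CPM in knockout. Nr1d1, the repressor Rev-erb alpha, moved the other way, with 86.7, 112 and 84.8 CPM in wild type and 46.6, 41.9 and 33.99 CPM in knockout. Tef, an output factor of the clock, stood at 102, 89.2 and 108 CPM in wild type and 222, 157 and 187 CPM in knockout. None of these 4 genes overlapped between the groups. The log2 fold changes were 1.44 ± 0.20 (SE), adjusted p = 0.00181 for Per2, 1.56 ± 0.21 (SE), adjusted p = 0.00158 for Per3, -1.20 ± 0.18 (SE), adjusted p = 0.00206 for Nr1d1 and 0.92 ± 0.17 (SE), adjusted p = 0.00593 for Tef. With GC offsets all 4 passed, with adjusted p-values of 0.00476, 0.00476, 0.0114 and 0.00997. In young mice the same 4 changed in the same direction, by 1.29, 1.51, -0.97 and 1.19. Of the 21 clock genes 4 rose and 1 fell, beside 9.52% and 7.21% of all tested genes. The hour at which the animals were killed is not stated in the labels and was not tested.

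Other stress and homeostasis lists held calls in both directions, beside 16.7% of all tested genes called. Of 41 chaperone and unfolded protein response genes 2 rose and 2 fell, with rises down to 0 without knockout replicate 3 or wild-type replicate 1, 2 or 3 and falls to 0 without knockout replicate 3 or wild-type replicate 1, 2 or 3. Hsph1, a heat shock protein, stood at 253, 229 and 286 CPM in wild type and 186, 151 and 124 CPM in knockout. Slc7a11, the cystine importer that feeds glutathione synthesis, stood at 6.58, 8.25 and 4.43 CPM in wild type and 1.202, 1.61 and 2.03 CPM in knockout (-2.02 ± 0.42 (SE), adjusted p = 0.00864), and Gclc, the rate-limiting enzyme of that synthesis, at 112, 140.2 and 144 CPM in wild type and 94.8, 94.3 and 89.2 CPM in knockout. Both fell in both fits. The list of 30 antioxidant response genes held 1 rise and 2 falls, with a median of 0.03. Slc7a11 passed in all 6 fits that leave out 1 library, and Gclc in 1. Of 46 lysosome and autophagy genes 9 rose and 4 fell, 2 and 2 with GC offsets. Leaving out knockout replicates 1, 2 and 3 and then wild-type replicates 1, 2 and 3 gave 4, 4, 2, 3, 2 and 3 rises and 3, 1, 1, 1, 1 and 3 falls. Ulk1, the kinase that starts autophagy, fell from 98.6, 101 and 100.04 CPM to 59.2, 51.3 and 48.2 CPM in both fits. Of 34 apoptosis genes 5 rose and 3 fell, and 0 passed with GC offsets. Rises numbered 3, 5, 2, 2, 2 and 2 and falls 1, 0, 0, 0, 3 and 0 without knockout replicates 1, 2 and 3 and then wild-type replicates 1, 2 and 3. Of 33 proteasome genes 1 rose and 2 fell, the rise being Psmc6 at 0.60, which had the opposite sign with GC offsets, -0.15. Proteasome rises were down to 0 without knockout replicate 3 or wild-type replicate 2, and falls to 0 without knockout replicate 1 or 3 or wild-type replicate 1 or 3.

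The most abundant genes past both fits were, apart from Lars2 and Ttr, structural proteins and regulators of growth. Ahnak, a giant scaffold protein of the cell membrane, stood at 4979, 5663 and 5639 CPM in wild type and 10756, 9855 and 11199 CPM in knockout (0.97 ± 0.23 (SE), adjusted p = 0.0131). Flna, an actin cross-linker, stood at 2162, 2086 and 2305 CPM in wild type and 2569, 4166 and 3650.4 CPM in knockout (0.66 ± 0.18 (SE), adjusted p = 0.0257). Grb10, an imprinted adaptor that inhibits insulin and IGF receptors, stood at 1035, 1002 and 1192 CPM in wild type and 1678, 1743 and 1693 CPM in knockout (0.66 ± 0.16 (SE), adjusted p = 0.0172). In these genes the knockout libraries were all higher. Tmsb4x, which binds actin monomers, stood at 804, 558 and 698 CPM in wild type and 834, 1883 and 1407 CPM in knockout, with knockout replicate 1 just above the highest wild-type library. Among the falls, Tpm2, the beta tropomyosin of muscle, stood at 803, 694 and 785 CPM in wild type and 524, 334 and 375 CPM in knockout, Ddr2, a collagen receptor kinase, at 459, 609.7 and 406 CPM in wild type and 311, 328 and 315 CPM in knockout, and Lbh, a transcription cofactor of limb and heart, at 461, 566 and 444 CPM in wild type and 278, 227 and 289 CPM in knockout. Of the 5 abundant rises, 5 passed without knockout replicate 1, 3 without knockout replicate 2, 1 without knockout replicate 3, 2 without wild-type replicate 1, 1 without wild-type replicate 2 and 2 without wild-type replicate 3. Scaled by library size alone, Lars2 and Ahnak passed. Of the 5 abundant falls, 3 passed without wild-type replicate 1 or 2 and 4 or 5 without any other single library.

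**Figure D4:**
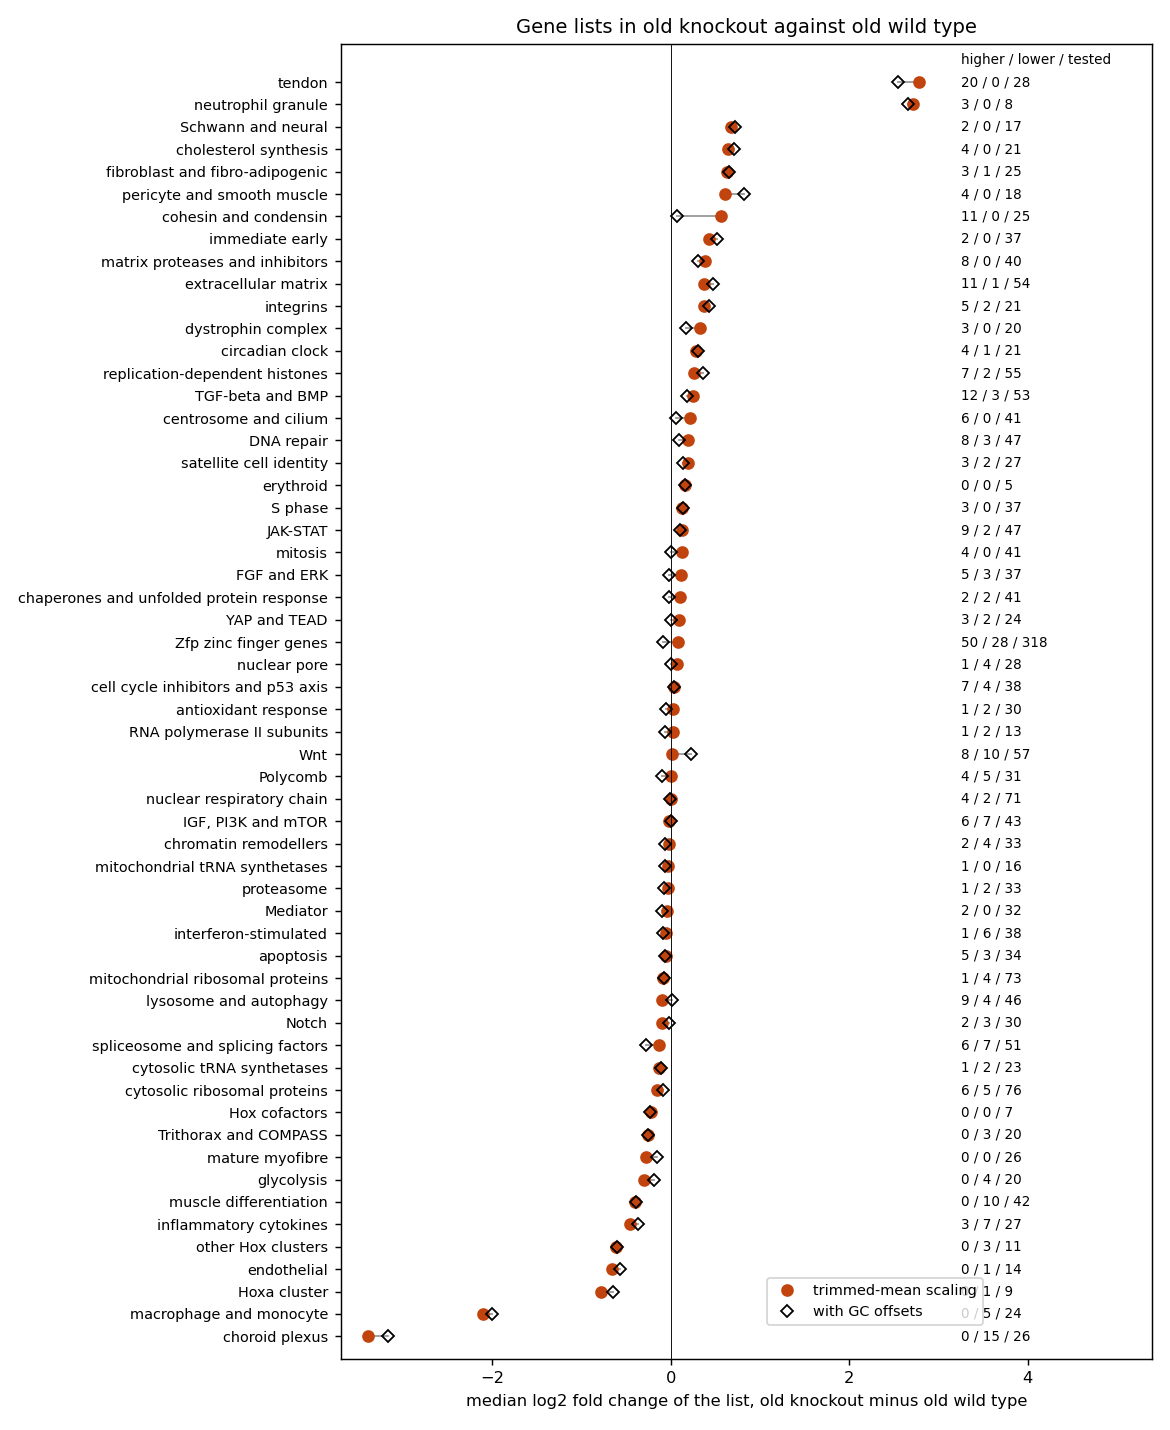
Median log2 fold change (x axis, old knockout minus old wild type) of each gene list with at least 5 tested members, with circles for trimmed-mean scaling and diamonds for GC offsets. The numbers at the right give members higher, lower and tested. Of the lists drawn, tendon genes have the highest median (2.78) and choroid plexus genes the lowest (-3.39). Both lists were written after earlier results of these data, so their places at the ends follow in part from that choice. The cohesin and condensin median moves from 0.57 to 0.07 with GC offsets.

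The same contrast in young mice called 2831 genes (20.9%), 1477 higher (10.9%) and 1354 lower (10%). Its fold changes come from other libraries than those in old mice, but the spread was estimated over all 4 groups together. Calls at both ages are thus not independent, and the counts of shared calls below are no separate support. Of the 1289 genes higher in old knockout, 1212 had the same sign in young and 780 were called in the same direction. Of the 976 lower genes, 897 had the same sign and 504 were called. Across all tested genes Spearman's rho of the 2 log2 fold changes was 0.567, and 0.429 with GC offsets in both. As the GC trend runs the same way at both ages (rho with GC content -0.448 in old and -0.562 in young), genes are not independent points. Of the 354 genes higher in both fits, 308 had the same sign in young with GC offsets and 86 were called there. Of the 410 lower ones, 364 had the same sign and 147 were called.

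The test of the difference between the ages called 2 genes (0.0148%), and 2 with GC offsets (0.0148%). DESeq2 called 58. Il1b stood at 1.26, 0.617 and 1.04 CPM in young wild type and 4.48, 1.797 and 0.745 CPM in young knockout, and the knockout effect was 1.30 in young against -3.84 in old mice, a difference of -5.15 (adjusted p = 0.0339). Ndn, the imprinted growth suppressor necdin, stood at 4.55, 4.87 and 4.903 CPM in wild type and 15.02, 24.6 and 23.2 CPM in knockout in old mice. It stood at 14.8, 14.2 and 15.7 CPM in young wild type and 9.53, 10.5 and 14.2 CPM in young knockout. Old wild-type libraries were thus the lowest of the 4 groups, and the difference of effects was 2.54 (adjusted p = 0.0131). Apart from Il1b, the tendon, choroid plexus and macrophage genes named above missed the threshold of that test, which does not show that the ages were alike. Comp, for example, had 5.19 in old and 2.01 in young mice, with an adjusted p of 0.44 for the difference. Macrophage genes such as Cd14 had values of either sign, -2.00 in old and 1.45 in young, with an adjusted p of 0.299.

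**Figure D5:**
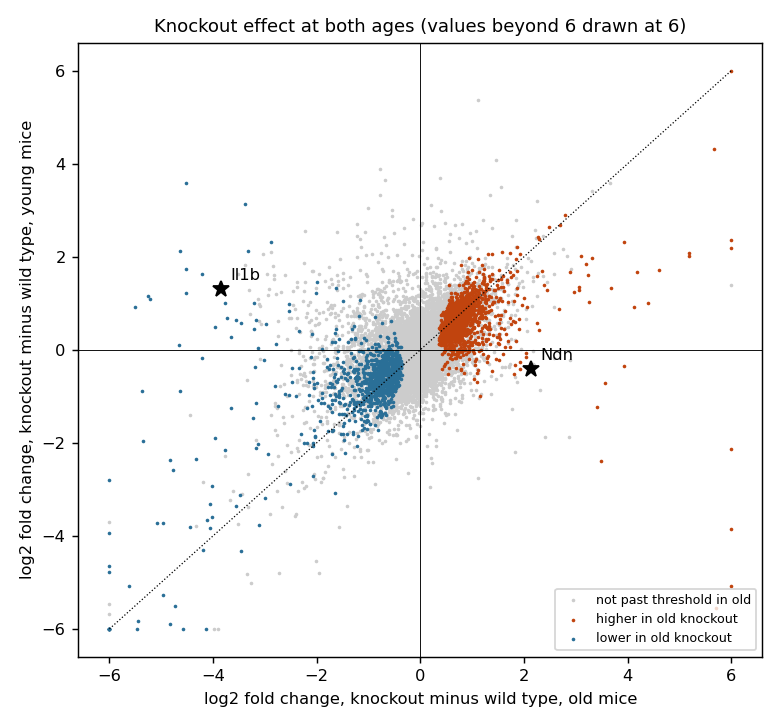
Log2 fold change of knockout against wild type in young mice (y axis) against that in old mice (x axis) for each tested gene, coloured by the call in old mice, with values beyond 6 drawn at 6. Stars mark Il1b (-3.84 in old and 1.30 in young) and Ndn (2.13 and -0.41), the 2 genes whose effects differed past the threshold.

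Promoters were examined for letters of the kind that Hox proteins bind. RefSeq promoters of build GRCm38.p6 were matched by symbol for 10610 of the 13540 tested genes, and the 250 bases before each start were searched on both strands for TTTATGG, for its variant TTTATTG and for the longer motif TGATTTAT. The longer motif can share its end with either of the others. At least 1 of these 3 was found in 3.97% of the promoters of all tested genes, 3.01% of those of genes higher in knockout and 4.82% of those of genes lower. Among genes called by both fits the shares were 2.60% of 269 and 5.25% of 324. Over all 27025 promoters in the table the share was 7.45%. The short E-box CANNTG, which myogenic factors bind, was in 57.0% of the promoters of tested genes. Among the 15 largest rises 13 had a promoter in the table and 2 held a Hox-type motif, and among the 15 largest falls 12 had one and 1 held a motif. These 3 promoters are printed 5′ to 3′ on the strand of the gene, with the motif in capitals, because they belong to the genes with the largest changes in both fits.
Fmod, chr1:134037004-134037253, plus strand: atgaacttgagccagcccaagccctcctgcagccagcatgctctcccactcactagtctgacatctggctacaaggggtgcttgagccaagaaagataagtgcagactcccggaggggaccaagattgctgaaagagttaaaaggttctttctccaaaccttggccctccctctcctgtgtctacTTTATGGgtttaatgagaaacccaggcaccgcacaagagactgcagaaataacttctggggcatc
Thbs4, chr13:92794819-92795068, minus strand: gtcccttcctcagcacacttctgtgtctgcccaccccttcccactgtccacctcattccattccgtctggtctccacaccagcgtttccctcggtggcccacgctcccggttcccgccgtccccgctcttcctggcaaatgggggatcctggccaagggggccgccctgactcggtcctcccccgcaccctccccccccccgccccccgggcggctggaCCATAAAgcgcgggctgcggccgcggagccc
Stab1, chr14:31168642-31168891, minus strand: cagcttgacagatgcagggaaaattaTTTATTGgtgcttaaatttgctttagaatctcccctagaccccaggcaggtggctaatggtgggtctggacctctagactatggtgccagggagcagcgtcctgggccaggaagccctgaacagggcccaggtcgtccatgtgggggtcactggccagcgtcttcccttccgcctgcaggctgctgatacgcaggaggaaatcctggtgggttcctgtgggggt
The motif starts 65 bases before the start of Fmod and 224 bases before that of Stab1. In Thbs4 it lies 31 bases before the start and is written as its reverse complement. A match is a description of letters, and binding was not measured here.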

How the data were processed

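Total RNA of satellite cells, taken on day 3 of injury, was sequenced as stranded, ribosomal-RNA-depleted libraries, per the labels' protocols. Files hold read counts per gene symbol, as deposited by the authors. TopHat, HTSeq, DESeq2 and build mm9 appear in the submitters' processing notes, and versions and the strand setting of the counting are not given in the sources used here, so overlapping, antisense and near-copy genes are uncertain.

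The summary lines of each file were kept out of library sizes. Counts were fitted with edgeR 4.0.16 (R 4.3.3), quasi-likelihood test, trimmed-mean factors, a low-count filter (minimum 10), all 4 groups sharing 1 spread estimate, and Benjamini-Hochberg adjustment at 0.05 over all 13540 genes. A second fit added loess offsets (span 0.3) on transcript GC content, known for 98.0% of tested genes. DESeq2 1.42.0 and limma 3.58.1 served as alternatives, and the functions were tested on simulated data. Shared replicate numbers do not pair the libraries.

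The comparison and the 60 gene lists were chosen with earlier results of these data known. Named genes were the 15 largest rises and falls past both fits without overlap and with mean log2 CPM over 1, the 5 most abundant each way, and up to 4 called members per list (2 by abundance where 0 passed). Pax7, Myod1, Myog, Scx, Egr1, Tnc, Csf1r, Tax1bp1, Tril and Ndn fall outside that rule and were chosen after their values were seen. Some items are not reported here.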

Additional observations from a re-analysis of the deposited data

Results flagged for a closer look

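The knockout effect on Il1b differed between the ages by -5.15 on the log2 scale (edgeR interaction test, adjusted p = 0.0339, n = 3 per group). It was negative in old mice (-3.84) and 1.30 in young mice. The effect on Ndn differed by 2.54 (adjusted p = 0.0131), with 2.13 in old and -0.41 in young mice. These are the 2 genes past that test, which took no account of the sex of the libraries.

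Reads outside the main measurement stood above every old wild-type library in 2 knockout libraries. Knockout replicate 3 had 70.8% of its uniquely aligned reads outside genes, against 39.2% to 57.1% in wild type. Reads with several alignments, per read counted in a gene, were at 2.95 in knockout replicate 1 and 7.54 in knockout replicate 3, against 1.69 to 1.998 in wild type. Knockout replicate 2, at 1.27, was below them.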

How the results depend on the processing

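The 2265 calls in old mice became 4215 with limma-voom sample weights, 983 with GC offsets, 1331 with GC and length offsets and 0 against a 2-fold minimum. They ranged from 779 to 1695 without 1 library, and were 121 without the male libraries and 3 without wild-type replicate 2 and knockout replicate 3. With the other size factors, filters and tools the count lay between 1862 and 3198. The 983 calls with GC offsets ranged from 60 (without knockout replicate 3) to 702 without 1 library (98, 66, 390 and 506 without wild-type replicates 1, 2 and 3 and knockout replicate 2), and were 15 without the male libraries and 1 without wild-type replicate 2 and knockout replicate 3. All leave-out fits with GC offsets were chosen after seeing the data. The 2831 calls in young mice became 855 with GC offsets, and the 2 genes of the age difference became 58 in DESeq2. Hoxa9 kept its sign in every setting, but missed the threshold against a 2-fold minimum (-1.63, adjusted p = 0.552), without the male libraries (-1.44) and without wild-type replicate 2 and knockout replicate 3 (-1.76). Psmc6 changed sign, to -0.15 with GC offsets, -0.14 with GC and length offsets and -0.15 with these offsets and the replicate block. The causes were not tested. Fits that leave 1 library in a group assume that it varies like the others.

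Same-numbered libraries did not deviate together (r = -0.15, -0.25 and -0.03), so the numbers are taken as names. With a replicate block 1779 genes were called, and with the block and GC offsets 545. The depth of knockout replicate 3, 4453886 gene reads, limits what can be shown for genes of low level.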

Other observations

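Of 192 long non-coding RNAs tested, 3 were higher and 10 lower in old knockout libraries, both smaller shares than the 9.52% and 7.21% of all tested genes, with a median log2 fold change of -0.40 against -0.01 for all tested genes, and with GC offsets 0 were higher and 10 lower (median -0.53). Without the strand setting of the counting, reads of overlapping genes on the other strand may be part of these values.

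Chromosome 13 had the highest median among the chromosomes, 0.24, with 77 of 495 tested genes higher and 14 lower, and chromosome 7 the lowest, -0.19, with 38 of 1019 higher and 107 lower. Their median GC contents were 47.6% and 53.7%. With GC offsets the medians became 0.03 and -0.10.

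Beside Ttr and Otx2, 4 genes past the threshold had 0 reads in all 3 old knockout libraries. The wild-type mean of 1110059M19Rik was at least 25.5-fold above a floor of 3 reads over the knockout group. That of Ccdc108 was at least 24.6-fold above it, of Rd3 at least 13.5-fold and of Oca2, a melanosome protein, at least 7.61-fold. These 4 were chosen after their values were seen.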
